A study of Mus musculus with 6 samples.

Results

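A set of 10 genes encodes the enzymes and partners through which the RTF1 branch of the PAF1 complex is linked to histone methylation. Their mRNA was measured in control and RTF1-deficient mouse Th17 cells. Th17 cells are CD4 T lymphocytes that secrete interleukin 17. The genes, picked by name from the 31017 rows of the count table, were Ash2l, Wdr5, Rbbp5, Setd1a, Setd1b, Kmt2a, Kmt2d, Setd2, Dot1l and Chd1, and each of the 10 was found. The 3 control libraries came from cells labelled WT and the 3 KO libraries from cells labelled KO, which the series design describes as RTF1-deficient. Both groups were Th17 cultures differentiated in vitro. The strain, age, sex, knockout allele and any Cre driver of the animals are not given in the sources used here, and nothing in the labels says which cultures came from separate animals, so that the p-values measure only the spread between these libraries.

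RTF1 travels with RNA polymerase II and the PAF1 complex and is needed for efficient ubiquitination of histone H2B. As background, ubiquitin on H2B is known to stimulate the methylation of histone H3 at lysine 4 (H3K4) by the SETD1 and MLL complexes and at lysine 79 (H3K79) by DOT1L. SETD2, which binds the elongating polymerase, places trimethylation on lysine 36 (H3K36), and CHD1 is a nucleosome remodeller whose chromodomains bind methylated H3K4 and which is found with the PAF1 complex and RTF1. The measurements below are of mRNA, and neither the proteins nor the histone marks were measured in these libraries.

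Total counts ranged from 16489813 to 51271226 per library, and the 10 genes had between 551 and 14295 counts in each. Rtf1 mRNA, the check of the labels, was 88.3 to 94.0 CPM in control and 26.2 to 45.3 CPM in KO (CPM, counts scaled to library depth with TMM factors), a log2 difference of −1.42 (edgeR adjusted p = 0.000755). Part of the Rtf1 transcript thus remained in each KO library, most in KO replicate 1. T cell markers were present in each library, with a summed level of 1283 to 1578 CPM in control and 1317 to 1741 CPM in KO. Of these 5 markers 2 were called higher and 1 lower. The 6 Th17 markers summed to 1603 to 2135 CPM in control and 594 to 1253 CPM in KO, and 4 of these 6 were called lower. Markers of other cells were low: B cell, erythroid, fibroblast, and CD8 and NK cell lists each summed to at most 11.1 CPM, and Ncr1 and Klrb1c had no count in any library. In these lists 1 CD8 and NK cell marker was called higher and 1 B cell marker lower. The 5 myeloid markers summed to 2.08 to 5.04 CPM in control and 16.4 to 27.3 CPM in KO, with Cd68 and Csf1r called higher, while Adgre1 and Itgam had at most 5 counts and Lyz2 0 to 46 counts in each library. Mitochondrial genes took 0.642% to 1.16% of counts in control and 1.11% to 1.44% in KO. The part of these differences in the results below was not tested. In such bulk samples fewer cells of a type and less RNA per cell cannot be told apart.

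Promoter sequence is shown for 3 genes: Dot1l and Rbbp5, because they were called in opposite directions, and Wdr5, because its protein is the direct partner of RBBP5. RefSeq (build GRCm38.p6) gave a promoter for 7 of the 10 genes. The 250 bases upstream of the start site are printed 5′ to 3′ on the strand of the gene, at chr10:80754953-80755202 (plus strand) for Dot1l, chr1:132477117-132477366 (plus strand) for Rbbp5 and chr2:27514897-27515146 (plus strand) for Wdr5. Capitals mark matches, on either strand, to the GC box GGGCGG or to the ETS core CCGGAA.
Dot1l: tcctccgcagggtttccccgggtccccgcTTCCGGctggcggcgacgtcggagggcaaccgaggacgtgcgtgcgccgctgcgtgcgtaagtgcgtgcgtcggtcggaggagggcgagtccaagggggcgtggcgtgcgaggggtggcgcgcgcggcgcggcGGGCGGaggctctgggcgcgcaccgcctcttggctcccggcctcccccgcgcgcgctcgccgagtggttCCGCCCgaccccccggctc
Rbbp5: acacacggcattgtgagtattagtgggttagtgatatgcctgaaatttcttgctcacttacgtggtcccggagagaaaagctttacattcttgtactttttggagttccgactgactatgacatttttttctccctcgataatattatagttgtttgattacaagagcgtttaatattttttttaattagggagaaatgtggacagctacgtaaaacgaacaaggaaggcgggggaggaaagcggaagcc
Wdr5: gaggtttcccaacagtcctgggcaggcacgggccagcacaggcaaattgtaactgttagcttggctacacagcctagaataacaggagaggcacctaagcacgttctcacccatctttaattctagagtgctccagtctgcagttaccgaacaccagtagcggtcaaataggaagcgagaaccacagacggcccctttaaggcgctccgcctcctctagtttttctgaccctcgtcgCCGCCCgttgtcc

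The Dot1l window held 44 CpG dinucleotides and 78.4% G and C, the Wdr5 window 12 CpGs and 54.4%, and the Rbbp5 window 10 CpGs and 40%. The median over all 32851 RefSeq promoters of the same length was 6 CpGs and 52.4%. That set, also the base of the motif shares below, includes promoters of genes not tested here. Among tested genes with a single RefSeq promoter, 10 to 19 CpGs, the range of Rbbp5 and Wdr5, was the largest class (3204 genes, beside 2279 with 0 to 9). A GC box was found in 5 of the 7 promoters (Dot1l, Kmt2a, Kmt2d, Setd2 and Wdr5, but not Rbbp5 or Setd1a), against 32.7% of all promoters. The ETS core was found in 2 of the 7 (Dot1l and Kmt2a), against 12.03% of all promoters. None of the 7 held CCAAT (33.8% of all promoters), TATAAA (12.4%), the cyclic AMP element TGACGTCA (1.55%), the E2F motif TTTCCCGC (0.895%) or the palindromic NRF1 motif (0.782%), all searched on both strands. In the printed Dot1l window the 2 GC boxes and the ETS core lie apart from each other.

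In KO cells Setd1b and Dot1l rose and Rbbp5 fell, and the other 7 genes did not pass the test. Setd1b rose 2.004-fold, Dot1l 1.41-fold, and Rbbp5 fell to 0.743 of its control level. Called genes, those with an adjusted p-value under 0.05 in edgeR's quasi-likelihood test of KO against control, made up 3 of the 10. Over the whole table of 14268 tested genes the called share was 46.1% (23.2% higher, 22.9% lower). When 1 library was left out, Setd1b was called in 6 of 6 fits, Rbbp5 in 4 and Dot1l in 1. The median log2 fold change of the 10 genes was 0.0022, against 0.013 for all tested genes. The KO libraries lay entirely above the control libraries for 4 genes and entirely below them for 4, and overlapped them for Kmt2d and Wdr5. Over all tested genes the groups were separate for 57.9%, with KO above for 29.9% and below for 28.0%. With the replicate number as a block in the model, 8 of the 10 genes were called, 4 higher and 4 lower, where 53.5% of all tested genes were called. The 5 genes added by the block were Kmt2a, Kmt2d, Ash2l, Wdr5 and Chd1.

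**Figure D1:**
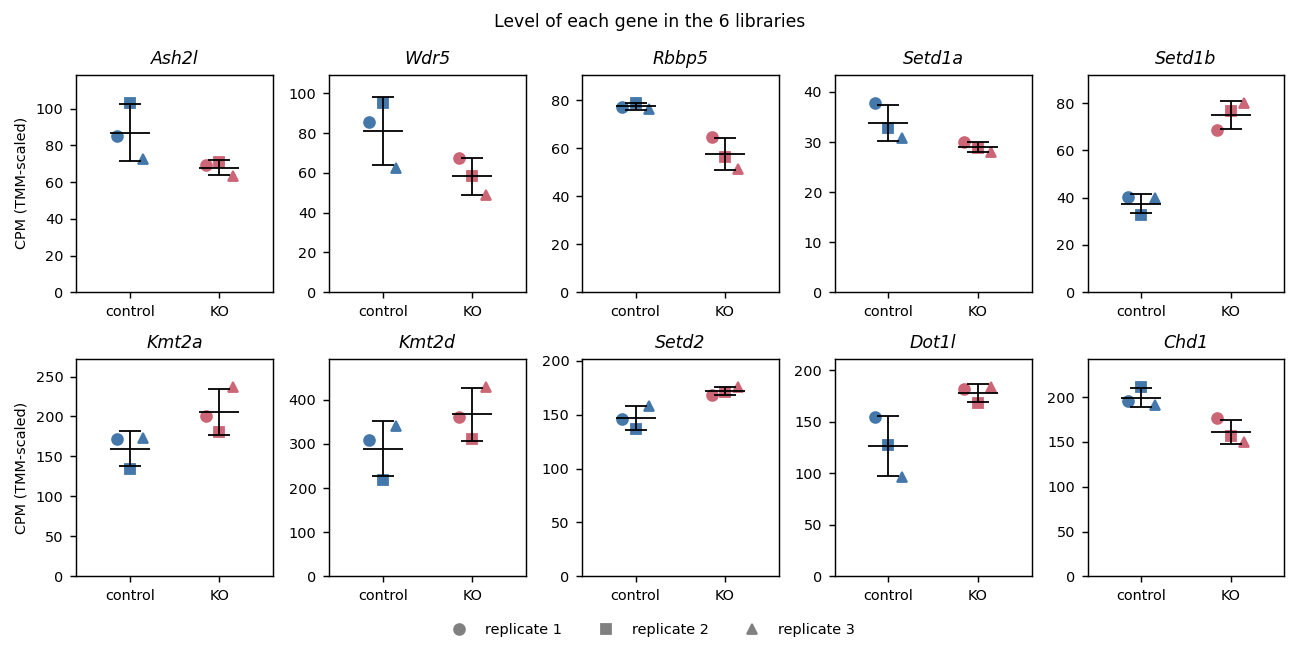
CPM of each of the 10 genes (vertical axes, from 0) in the 3 control (blue) and 3 KO (red) libraries, with symbols for the replicate number and bars for the mean and SD (n = 3). Setd1b lay at 32.7 to 40.2 CPM in control and 68.5 to 80.1 CPM in KO, and the groups overlapped for Wdr5 and Kmt2d.

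ASH2L, WDR5 and RBBP5 are, with DPY30, the core subunits that every SETD1 and MLL complex shares and that activate its catalytic subunit. All 4 genes had lower means in KO. Rbbp5 (chromosome 1, 132477365 to 132505659, plus strand, GRCm38) held 77.3, 78.9 and 76.3 CPM in control and 64.8, 56.6 and 51.3 CPM in KO, here and below in the order of the replicate numbers. The control libraries lay close together and every KO library lay below them. The means were 77.5 ± 1.35 and 57.6 ± 6.79 CPM (SD, n = 3), which is −0.43 ± 0.117 (SE) on the log2 scale (adjusted p = 0.0163 by edgeR). The call was lost without KO replicate 2 (adjusted p = 0.0668) and without KO replicate 3 (adjusted p = 0.0679).

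Wdr5 (chromosome 2, 27515157 to 27536535, plus strand) held 85.8, 95.2 and 62.3 CPM in control and 67.6, 58.6 and 48.955 CPM in KO. Control replicate 3 was the lowest control library and lay below KO replicate 1, so the groups overlapped. The log2 fold change was −0.47 (SE 0.180, edgeR adjusted p = 0.0579, and 0.00784 with the replicate block). Without control replicate 3 it was −0.69 (adjusted p = 0.00469), and without KO replicate 1 −0.60 (adjusted p = 0.0423). The other 4 fits without 1 library did not pass, the value nearest to 0 being −0.35 without control replicate 2 (adjusted p = 0.168).

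Ash2l (chromosome 8, 25815996 to 25847694, minus strand) held 85.2, 103 and 72.6 CPM in control and 69.6, 70.8 and 63.1 CPM in KO. All KO libraries were below all control libraries, by a margin of less than 2 CPM. The log2 fold change was −0.36 (SE 0.142, edgeR adjusted p = 0.0657, and 0.0255 with the replicate block). Without control replicate 3 it was −0.54 (adjusted p = 0.00983), and the other 5 fits without 1 library did not pass, with −0.23 without control replicate 2 (adjusted p = 0.162). Dpy30, the remaining core subunit, fell from a mean of 63.99 ± 18.5 CPM to 40.3 ± 8.97 CPM (SD, n = 3), with a log2 difference of −0.66 ± 0.237 (SE, adjusted p = 0.0462 by edgeR). Control replicate 3, at 43.9 CPM of Dpy30, lay below KO replicate 1 at 48.974 CPM. Its call was lost without control replicate 1, control replicate 2, KO replicate 2 or KO replicate 3 (adjusted p 0.0971 to 0.155), and under scaling by library size alone (adjusted p = 0.0734). For Ash2l, Wdr5 and Dpy30 control replicate 3 was the lowest control library, whereas for Rbbp5 the control libraries differed little.

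Of the 6 catalytic genes of the H3K4 complexes, Setd1b and Kmt2b rose and the other 4 did not pass the test, Kmt2a and Kmt2d with positive and Setd1a and Kmt2c with negative log2 fold changes. SETD1A and SETD1B are the enzymes of the SETD1 complexes, which place most H3K4 trimethylation at active promoters. Setd1b (chromosome 5, 123142193 to 123168629, plus strand) held 40.2, 32.7 and 39.7 CPM in control and 68.5, 76.7 and 80.1 CPM in KO. The groups were far apart. The log2 fold change was 1.003 (SE 0.128, edgeR adjusted p = 0.000616), and the gene was called under each of the 13 alternatives, between 0.90 and 1.09. Setd1a (chromosome 7, 127776670 to 127800122, plus strand) held 37.8, 32.8 and 30.8 CPM in control and 29.95, 28.9 and 28.01 CPM in KO. Its KO libraries all lay below its control libraries, but the log2 fold change of −0.22 (SE 0.129) did not pass the test (edgeR adjusted p = 0.191, and 0.167 with the replicate block). Setd1a is uncertain: in GENCODE release M21, 51.8% of its exonic bases overlap Gm49388 on the same strand, a gene that has 1 count in all 6 libraries together, and how reads in shared bases were counted is not given in the sources used here.

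KMT2A and KMT2D are MLL-family enzymes. KMT2A acts at promoters of developmental genes, such as the Hox genes, together with menin, and KMT2D places H3K4 monomethylation at enhancers. Kmt2a (chromosome 9, 44803355 to 44881296, minus strand) held 172, 134 and 173 CPM in control and 201, 180.3 and 237 CPM in KO. All KO libraries were above all control libraries (log2 fold change 0.37, SE 0.148, edgeR adjusted p = 0.0706, and 0.0152 with the replicate block). Scaling by library size alone also gave a call (adjusted p = 0.0369). Kmt2d (chromosome 15, 98831669 to 98871204, minus strand) held 308, 219 and 339.6 CPM in control and 361, 311 and 429 CPM in KO. Control replicate 3 exceeded KO replicate 2, and within each replicate number KO was the higher library (log2 fold change 0.34, SE 0.186, edgeR adjusted p = 0.159, and 0.0198 with the replicate block). Without control replicate 2 its value was 0.17 (adjusted p = 0.437) and without KO replicate 3 it was 0.22 (adjusted p = 0.431), and that of Kmt2a was 0.24 without control replicate 2 (adjusted p = 0.208). For both genes replicate 2 was the lowest library of its group.

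Each of these enzymes has a close relative. Kmt2b, the relative of Kmt2a, rose from a mean of 103 ± 11.1 CPM to 148 ± 8.58 CPM (SD, n = 3), a log2 difference of 0.52 ± 0.117 (SE, adjusted p = 0.00694 by edgeR), with no overlap. Kmt2c, the relative of Kmt2d, held 144 ± 31.2 and 125 ± 11.4 CPM (−0.20, edgeR adjusted p = 0.330). Ratios of 2 genes within a library do not depend on the scaling between libraries. The ratio of Setd1a to Setd1b counts was 0.941, 1.0025 and 0.775 in control and 0.437, 0.377 and 0.3496 in KO. The 2 groups were well apart, and the mean log2 ratio was lower by 1.22 in KO (−0.15 ± 0.194 in control and −1.37 ± 0.164 in KO, SD, n = 3; two-sided exact permutation p = 0.1, which is the lowest that 3 libraries against 3 can give, and 0.2 adjusted over 4 pairs of genes). The ratio of Kmt2d to Kmt2c was 2.198, 1.895 and 1.91 in control and 2.78, 2.76 and 3.196 in KO, again without overlap (difference of mean log2 ratio 0.54, exact permutation p = 0.1, adjusted 0.2). The ratio of Kmt2a to Kmt2b overlapped between the groups (difference −0.16, exact permutation p = 0.5, adjusted 0.5), as did that of Chd1 to Chd2 (−0.20, exact permutation p = 0.5, adjusted 0.5). The 4 pairs were tested with a design that cannot reach 0.05.

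A summary over the subunits was chosen after the values were seen and is given without a test. The summed RPKM (CPM per kilobase of exon) of the 6 catalytic genes Setd1a, Setd1b and Kmt2a to Kmt2d, divided by the mean RPKM of the 4 core genes, was 1.91, 1.32 and 2.61 in control and 2.86, 3.11 and 4.57 in KO. All KO libraries lay above all control libraries, and replicate 3 was highest in both groups. Dpy30, at 55.8 ± 16.1 RPKM in control and 35.2 ± 7.83 RPKM in KO (SD, n = 3), weighs most in the core mean, and its call and overlap are given above. Without Dpy30, an alternative added after the data were seen, the ratio was 3.03, 2.18 and 3.64 in control and 4.27, 4.49 and 6.18 in KO. The mean core RPKM was 26.95 ± 5.6988 in control and 18.4 ± 3.12 in KO, and the summed catalytic RPKM was 50.03 ± 6.82 and 62.8 ± 6.03 (SD, n = 3).

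**Figure D2:**
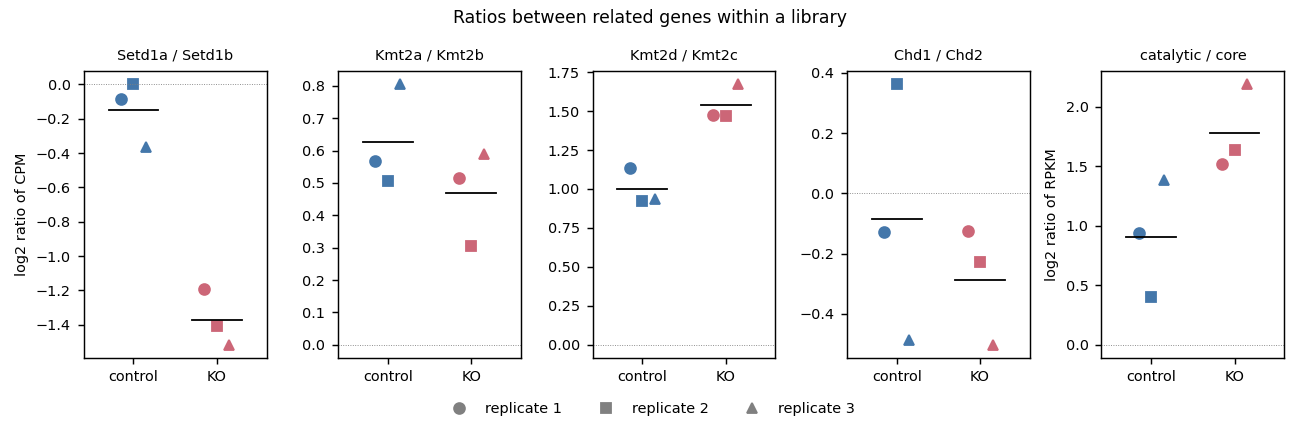
Log2 ratios within each library between 4 pairs of related genes, from CPM, and, at the right, between the summed catalytic and the mean core subunits, from RPKM (symbols: replicate numbers, lines: group means, dotted line: ratio of 1). The groups separated for Setd1a to Setd1b, Kmt2d to Kmt2c and catalytic to core, and overlapped for Kmt2a to Kmt2b and Chd1 to Chd2.

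SETD2 is the enzyme of H3K36 trimethylation over the bodies of transcribed genes. Setd2 (chromosome 9, 110532597 to 110618633, plus strand) held 146, 137 and 158 CPM in control and 168, 172 and 176 CPM in KO. The KO libraries lay above the control libraries by a small margin. The log2 fold change of 0.22 (SE 0.106) did not pass the test (edgeR adjusted p = 0.111, and 0.0884 with the replicate block) and passed it under scaling by library size alone (0.31, adjusted p = 0.0426), the only alternative of the 13 under which Setd2 was called.

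DOT1L is the H3K79 methyltransferase and, unlike the other methyltransferases among the 10 genes, has no SET domain. Dot1l (chromosome 10, 80755206 to 80795461, plus strand) held 155, 127 and 96.4 CPM in control and 181, 168 and 184 CPM in KO. The control libraries were spread widely, and all KO libraries lay above them. The means were 126 ± 29.1 and 178 ± 8.42 CPM (SD, n = 3), or 0.497 ± 0.165 (SE) on the log2 scale (adjusted p = 0.0358 by edgeR). When 1 library was left out, the call held without control replicate 1 and was lost without each of the other 5 (adjusted p 0.0713 to 0.0975). Without control replicate 3 the fold change was 0.28.

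CHD1 remodels nucleosomes at transcribed genes. Chd1 (chromosome 17, 15704967 to 15772610, plus strand) held 196, 211 and 191 CPM in control and 177, 157 and 150.1 CPM in KO. All KO libraries were lower than all control libraries. Its log2 fold change of −0.31 (SE 0.113) missed the threshold (edgeR adjusted p = 0.0509) and passed it with the replicate block (adjusted p = 0.0339), with upper-quartile factors (0.0305), and without control replicate 3 (0.0343) or KO replicate 1 (0.0413). A p-value that misses the threshold does not show that a gene was unchanged.

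**Figure D3:**
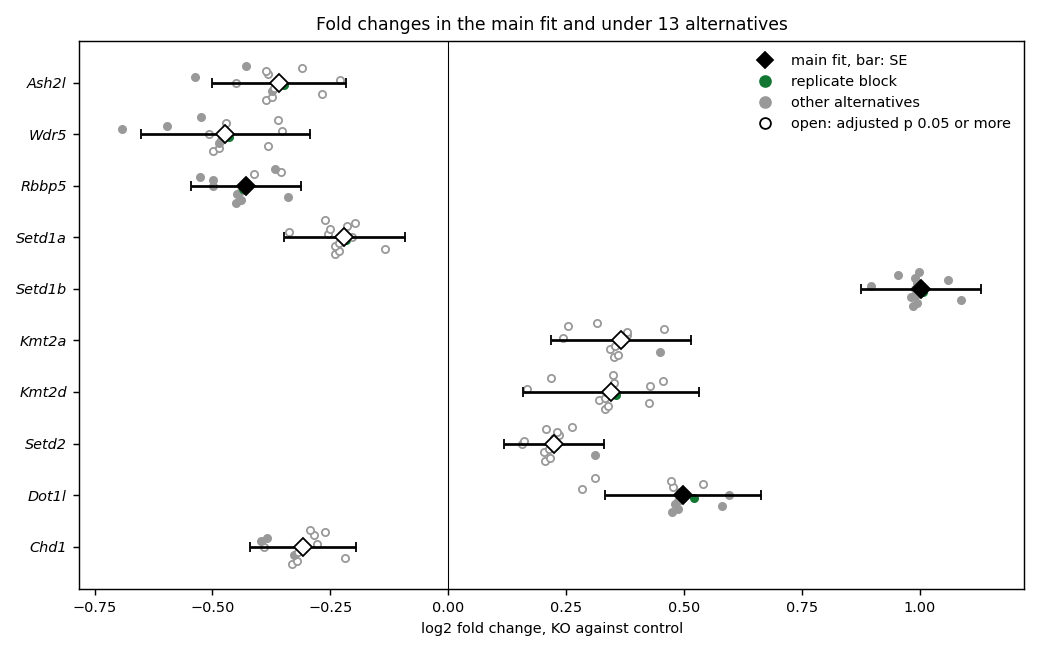
Log2 fold change of KO against control (horizontal axis) for each gene in the fit described (diamond, bar: SE) and under 13 alternative settings (circles, green for the replicate block), with filled symbols for adjusted p under 0.05. No gene crossed 0, and Setd1b was filled throughout.

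Levels of different genes were compared per length. In control the order of mean RPKM was Chd1 (22.9 ± 1.22), Wdr5 (22.6 ± 4.71), Rbbp5 (19.7 ± 0.343), Kmt2d (14.5 ± 3.13), Dot1l (14.5 ± 3.34), Setd2 (13.7 ± 1.001), Ash2l (9.7006 ± 1.71), Kmt2a (9.59 ± 1.32), Setd1a (4.97 ± 0.534) and Setd1b (3.11 ± 0.347; SD, n = 3). Neighbours differed by less than the sum of their SDs from Chd1 to Wdr5 to Rbbp5, from Kmt2d to Dot1l to Setd2, and from Ash2l to Kmt2a, and by more at the other steps. In KO the order ran from Dot1l (20.4 ± 0.967), Chd1 (18.5 ± 1.59) and Kmt2d (18.4 ± 2.98) to Ash2l (7.56 ± 0.458), Setd1b (6.225 ± 0.494) and Setd1a (4.26 ± 0.143). The RPKM of Setd1b was below that of Setd1a in control and above it in KO, with the limit on Setd1a given above. The position of Ash2l depends on the length used, since with its longest transcript in place of all exons its control mean was 23.5 RPKM. With that length Wdr5 (28.1 RPKM) stood above Chd1 (25.2 RPKM) in control.

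**Figure D4:**
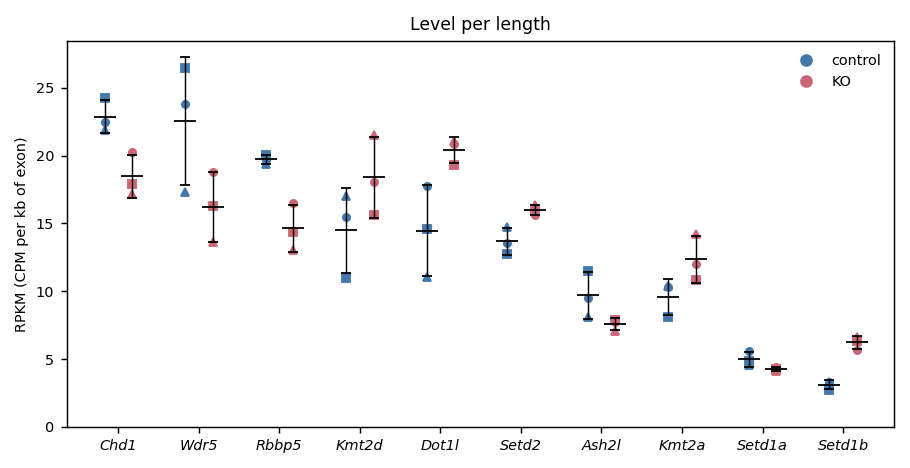
RPKM of the 10 genes (vertical axis, from 0) in control (blue) and KO (red) libraries, ordered by control mean, with bars for the mean and SD (n = 3) and circles, squares and triangles for replicates 1, 2 and 3. With all exons as the length, Chd1 had the highest mean in control and Dot1l in KO, and Setd1a and Setd1b were lowest in both.

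Transcript length differed among the 10 genes. Kmt2d (19.9 kb of exon), Kmt2a (16.7 kb), Setd1b (12.1 kb) and Setd2 (10.8 kb) had positive log2 fold changes, of which that of Setd1b alone was called. Dot1l (8.705 kb), shorter than Chd1 and Ash2l, also had a positive value (0.497) and was called. Negative values were found for short and long genes: Wdr5 (3.596 kb) and Rbbp5 (3.93 kb), but also Setd1a (6.795 kb), Chd1 (8.72 kb) and Ash2l (8.97 kb). Among all 1186 tested genes with at least 10 kb of exon the median log2 fold change was −0.10, with 207 called higher and 344 lower, and among the 3957 genes with at least 6 kb it was −0.039. The median of genes under 3 kb was 0.087. The 4 longest of the 10 genes lay above the median of genes of that length.

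Of the 89 genes in 7 lists of related factors, 86 were tested and 39 of them called, 15 higher and 24 lower, a share of 45.3% beside 46.1% of all tested genes. The counts of each list below are to be read against the 23.2% of all tested genes called higher and the 22.9% called lower, and no list was tested against them. Pagr1a, with no count in any library and 98.7% of its exonic bases shared with other gene models, Usp51, with 0 to 3 counts in each, and Kdm5d were not tested. When scaled by library size alone the medians of the H3K4, demethylase and CHD lists below turned positive (0.056, 0.013 and 0.0085). With the replicate block, under which 53.5% of all tested genes were called, lower calls numbered 4, 5, 13 and 3 in the H3K4, H3K36, reader and CHD lists. Higher calls then numbered 2 in the demethylase list, and the other counts stayed as given below. Among other H3K4 methyltransferases and their subunits, 3 of the 12 tested genes rose and 3 fell (median log2 fold change −0.032). Beside Kmt2b the genes that rose were Setd7, a monomethyltransferase (0.70, edgeR adjusted p = 0.00256), and Wdr82, which tethers SETD1 complexes to RNA polymerase II, from 132 ± 10.98 CPM to 193 ± 22.9 CPM (0.55, edgeR adjusted p = 0.00773). The Wdr82 call was lost without control replicate 1 (adjusted p = 0.0635). Beside Dpy30 the genes that fell were Men1, which encodes menin, a subunit of the KMT2A and KMT2B complexes (−0.50, edgeR adjusted p = 0.00875), and Paxip1, a subunit of the KMT2C and KMT2D complexes (−0.80, edgeR adjusted p = 0.0102). Cxxc1, the CpG-binding subunit of SETD1 complexes, held 51.7 ± 6.82 and 52.5 ± 2.24 CPM (0.022, adjusted p = 0.900), and its direction flipped with DESeq2 (−0.0030). Hcfc1 had a log2 fold change of −0.33 (edgeR adjusted p = 0.0899, and 0.0275 with the replicate block).

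Of 10 H3K36 methyltransferases and partners none rose and 3 (30%) fell by edgeR (median −0.33). None rose by DESeq2, 1 rose at an unadjusted p under 0.05, and Supt6 was called higher under scaling by library size alone (adjusted p = 0.0203). Nsd2, which places H3K36 dimethylation, fell from 272 ± 31.4 CPM to 150.25 ± 37.03 CPM (SD, n = 3), a log2 difference of −0.86 ± 0.183 (SE, adjusted p = 0.00551 by edgeR). Nsd3, which belongs to the same NSD family, fell from 303 ± 96.3 CPM to 186 ± 11.3 CPM (−0.699, edgeR adjusted p = 0.0213), and its call was lost without KO replicate 1 (adjusted p = 0.0534) and KO replicate 2 (0.0789). Without control replicate 3 its log2 fold change was −0.465 (adjusted p = 0.0144). Smyd2 fell as well (−0.87, edgeR adjusted p = 0.00643), and is uncertain, since 29.96% of its exonic bases overlap Gm37422 on the opposite strand. Nsd1 (−0.31, edgeR adjusted p = 0.0596, and 0.0335 with the replicate block), Iws1 (−0.25), Supt6 (0.30) and Ash1l (0.0045, a direction that flipped with DESeq2 size factors and upper-quartile factors) were not called. IWS1 and SPT6, the product of Supt6, are elongation factors that help to bring SETD2 to the polymerase.

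Of the 7 genes listed as DOT1L partners, which include the AFF genes Aff1, Aff3 and Aff4, 1 rose and 3 fell (median −0.12). Mllt10, whose protein AF10 binds DOT1L and promotes higher H3K79 methylation, fell from 74.8 ± 3.16 CPM to 43.9 ± 1.48 CPM (SD, n = 3) with no overlap, a log2 difference of −0.77 ± 0.104 (SE, adjusted p = 0.000782 by edgeR). Mllt3, which encodes the acetyl-lysine reader AF9, fell from 91.4 ± 9.79 CPM to 60.1 ± 1.89 CPM (−0.603, edgeR adjusted p = 0.00339). Both were called under each of the 13 alternatives, in the direction opposite to that of Dot1l. Mllt1 (−0.12) and Mllt6 (0.24) were not called. Aff1 rose (0.84, edgeR adjusted p = 0.000627) and Aff3 fell from 155 ± 35.7 CPM to 33.7 ± 4.86 CPM (−2.21 ± 0.187 SE, adjusted p = 0.000132 by edgeR). AFF proteins are scaffolds of elongation complexes that contain AF9 or its relative ENL.

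The list of H3K4 and H3K36 demethylases held 14 tested genes. Among them were Rcor1, which encodes a partner and not a demethylase, and Kdm4d, listed by its gene family. In the edgeR fit without the block no gene rose and 3 fell (median −0.076), while 2 had higher values at an unadjusted p under 0.05. DESeq2 called 1 higher, and edgeR called 2 higher with the replicate block and 2 under scaling by library size alone. Kdm4d was among the higher calls in each of these settings. Its level was low, at 1.37 ± 0.608 CPM in control and 3.25 ± 1.63 CPM in KO (SD, n = 3). The 3 that fell were Kdm4b (−0.97, edgeR adjusted p = 0.00154), Kdm1b (−0.86, edgeR adjusted p = 0.0011) and Kdm2b (−0.41, edgeR adjusted p = 0.0256). The Kdm2b call was lost in 4 of the 6 fits without 1 library (without control replicate 1, control replicate 2, KO replicate 1 or KO replicate 2, adjusted p 0.0573 to 0.109) and under scaling by library size alone (adjusted p = 0.0604). Of 24 readers of H3K4 and H3K36 methylation 5 (20.8%) rose and 11 (45.8%) fell, beside 23.2% and 22.9% of all tested genes (median −0.32). The largest changes by the naming rule were those of Phf1 (1.73), Dnmt3b (−1.27), Sgf29 (−1.24) and Ing5 (−1.16), with edgeR adjusted p-values of 0.00139, 0.00177, 0.0012 and 0.00302. PHF1 guides the Polycomb methyltransferase, DNMT3B is a DNA methyltransferase recruited to H3K36 methylation, and SGF29 and ING5 bind H3K4 trimethylation within acetyltransferase complexes. Phf1 is uncertain, since 39.3% of its exonic bases overlap genes on the opposite strand.

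Among 8 other CHD remodellers 1 rose, Chd3 (0.66, edgeR adjusted p = 0.00924), and 1 fell, Chd6 (−0.73, edgeR adjusted p = 0.0114, and 0.052 without KO replicate 2). Chd2, the closest relative of Chd1, held 215 ± 51.6 and 196 ± 14.8 CPM (−0.13, edgeR adjusted p = 0.550), and 18.4% of its exonic bases overlap other gene models on the same strand. Of 11 tested H2B ubiquitin enzymes and deubiquitinase subunits 5 (45.5%) rose and none fell by edgeR (median 0.26), also by DESeq2, and 6 rose and none fell at an unadjusted p under 0.05. They were Rnf40 (0.50, edgeR adjusted p = 0.0048), which forms the H2B ubiquitin ligase with RNF20, the conjugating enzymes Ube2a (0.55, edgeR adjusted p = 0.014) and Ube2b (0.74, edgeR adjusted p = 0.00288), and, on the removing side, Usp27x (1.11, edgeR adjusted p = 0.00318) and Atxn7 (0.65, edgeR adjusted p = 0.00347). The Ube2a call was lost without control replicate 1, control replicate 3 or KO replicate 2 (adjusted p 0.0552 to 0.104). Rnf20 itself held 137 ± 13.6 and 162 ± 16.8 CPM (0.24, edgeR adjusted p = 0.150). The remaining tested genes were not called either: Usp22 (−0.28), Eny2 (−0.19), Wac (−0.069), Atxn7l3 (0.26) and Usp44 (0.17). All KO libraries of Usp22 lay below all its control libraries. Usp27x was low, at 5.37 ± 0.804 and 11.7 ± 1.84 CPM. At an unadjusted edgeR p under 0.05, 1 gene fell with the replicate block or upper-quartile factors, and 2 fell without control replicate 3.

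**Figure D5:**
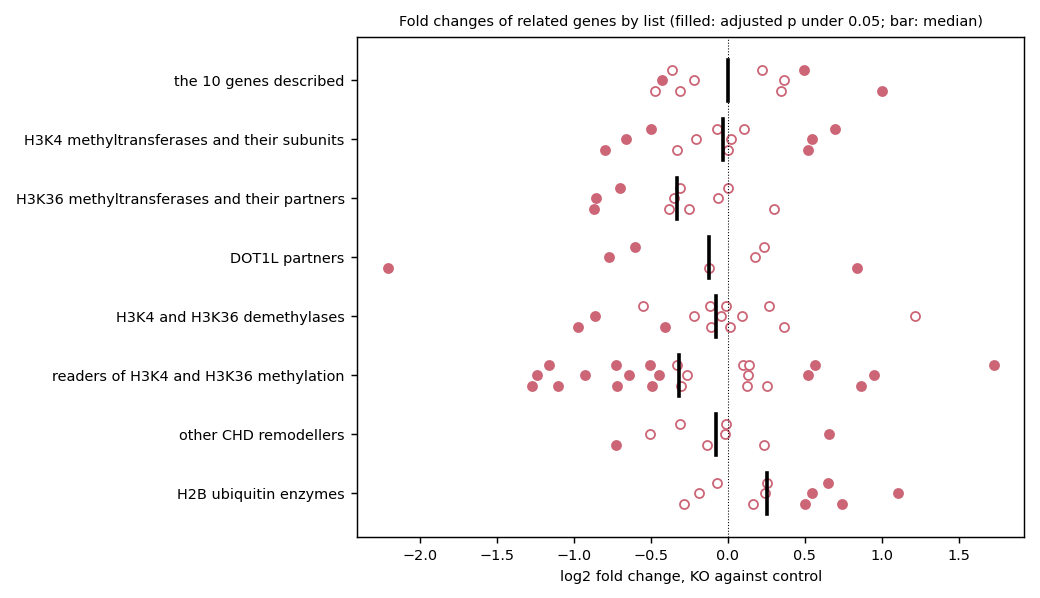
Log2 fold change of KO against control for each tested gene of the 8 lists (points, spread vertically for legibility; filled: adjusted p under 0.05; black bar: median of the list). The H3K36 list holds 3 filled points of 10, all below 0 (with 1 gene called higher under scaling by library size alone), the H2B ubiquitin list 5 of 11, all above 0, and the median of the 10 genes described is 0.0022.

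Profiles across the 6 libraries were compared with those of 12376 other tested genes with a named symbol by the Euclidean distance of log2 CPM centred on the mean of each gene. Dot1l was nearest to Slc4a2 (distance 0.146, Pearson r 0.988), Gas8 (0.153) and Sppl2b (0.167). Setd2 was nearest to Vps37a (0.0529, r 0.993), Smad1 (0.0609) and Rspry1 (0.0636), and Chd1 to Tprn (0.0658, r 0.992), Llgl1 (0.0903) and Stxbp4 (0.09498). With 6 libraries in 2 groups such likeness is a description.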

How the data were processed

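The 6 libraries are 3 control and 3 KO cultures, grouped by sample title, and each table column was matched by sample description. Values the authors deposited are whole-number counts per gene symbol. Per the submitters' processing notes, STAR, featureCounts and DESeq2 were used with mm10; versions, annotation and strand setting are not given in the sources used here. Coordinates, exon lengths and overlaps come from GENCODE release M21 (GRCm38, the assembly of mm10), matched by symbol, with lengths for 99.0% of tested genes.

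The table had 0 columns without a sample. Counts were analysed with edgeR 4.0.16 (R 4.3.3): TMM factors, filterByExpr by group (14268 of 31017 genes kept), quasi-likelihood test of KO against control without covariate, and Benjamini-Hochberg adjustment over all tested genes with a threshold of 0.05. The SE is the absolute log2 fold change over the square root of F. Total counts set the counting precision, reads carried no stated molecular identifiers, and the biological coefficient of variation was 0.212. Exact permutation tests used scipy 1.17.1.

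Deviations from the group means were correlated across genes at 0.270, 0.130 and 0.379 for libraries with equal replicate numbers. For unequal numbers the values were −0.39 to 0.204, the highest being control 2 with KO 1. Control 2 was thus closer to KO 1 (0.204) than to KO 2 (0.130), and the correlations do not establish that equal numbers mark pairs. The value of 0.379 came from the libraries with Kdm5d transcript, and the part of that difference in the correlation was not tested. No label explains the numbering. Calls are those of the fit without the replicate block unless the block is named, and the block is an alternative setting.

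The members and lists were chosen with earlier results of these data known. Named genes were Rtf1, the 10 genes, 20 fixed relatives and partners, and up to 4 called genes per list with the largest fold change, a mean of at least 5 CPM and no overlap between groups. Alternatives were DESeq2 1.42.0, 3 other scalings, no filter on low counts, the replicate block, leaving out each library, and leaving out both libraries numbered 3.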

Additional observations from a re-analysis of the deposited data

How the results depend on the processing

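Of 637 refits of the 49 named genes under 13 alternatives, 575 kept direction and side of the threshold, 25 lost a call, 24 gained a call and 13 changed sign. The 10 genes gave 2 higher and 1 lower call. Higher calls numbered 4 under scaling by library size alone, 4 with the replicate block, and 1 to 2 when libraries were left out. Lower calls numbered 4 with upper-quartile factors, 2 without a filter, 4 with the replicate block, and 0 to 4 when libraries were left out. Among the named genes outside the 10, the replicate block moved Hcfc1 and Nsd1 across the threshold and changed no other call. For the other lists the counts stayed within 1.5 times of 15 higher and 24 lower under each alternative. Sign changes were seen for Cxxc1 (−0.0030 with DESeq2, −0.14 to 0.098 with libraries left out), Ash1l (−0.0080 with DESeq2, −0.00035 with DESeq2 size factors, −0.022 with upper-quartile factors, −0.0063 without a filter, −0.18 to 0.10 with libraries left out) and Chd2 (−0.31 to 0.00093 with libraries left out). The Chd1 to Chd2 ratio ranged from −0.40 to 0.022 with libraries left out. The cause of these changes was not tested.

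Levels per length moved with the longest transcript as length, giving control means of 18.5 RPKM for Dot1l, 4.24 for Setd1b, 23.5 for Ash2l, 28.1 for Wdr5, 22.9 for Rbbp5, 17.6 for Setd2 and 25.2 for Chd1, and Rbbp5 was 19.1 under scaling by library size alone. Each of the 10 genes had at least 551 counts in each library, and 3 libraries per group limit the precision.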

Other observations

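Histone demethylases on the sex chromosomes, singled out after their values were seen, followed the replicate number rather than the group. Kdm5d, a Y-linked H3K4 demethylase, held 49.7 CPM in control replicate 3 and 48.1 CPM in KO replicate 3, and at most 0.0619 CPM in the other 4 libraries. Its X-linked relative Kdm5c held 225, 227 and 177 CPM in control replicates 1, 2 and 3 and 224, 215 and 142 CPM in KO replicates 1, 2 and 3. Kdm6a, an X-linked subunit of the KMT2C and KMT2D complexes, held 101, 102 and 62.5 CPM in control and 99.998, 104 and 61.4 CPM in KO, so that replicate 3 was lowest in each group for both genes. By Kdm5d, both libraries numbered 3 held cells with a Y chromosome, and the other 4 showed almost no Y-linked transcript of this gene. The labels do not give this difference, and its part in the fold changes above was not tested. With both libraries numbered 3 left out, Setd1b (log2 fold change 0.999, edgeR adjusted p = 0.000471) and Rbbp5 (−0.37, adjusted p = 0.0428) stayed called, Dot1l was not (0.31, adjusted p = 0.103), and Ash2l (−0.43, adjusted p = 0.0264) and Wdr5 (−0.52, adjusted p = 0.00988) were.

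The gene model AC061963.1, singled out after its values were seen, lies on the strand opposite to Kmt2a and overlaps 2.27% of its exonic bases. It held 49, 49 and 92 counts in control replicates 1, 2 and 3 and 141, 210 and 132 counts in KO replicates 1, 2 and 3, beside 2822 to 7296 counts of Kmt2a. Since the strand setting of the counting is not given in the sources used here, reads of the 2 cannot be told apart where they overlap.

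The 4 promoters with 26 or more CpGs (Dot1l, Setd2, Kmt2a and Kmt2d), a limit not set in advance, belonged to genes with positive log2 fold changes. Those of Rbbp5 and Wdr5, with 10 and 12 CpGs, belonged to genes with negative values, while Setd1a had 25 CpGs and a negative value. Of these genes only Dot1l and Rbbp5 were called. The limit of 26 falls between Setd1a and Kmt2d (26 CpGs), so that the split follows from the choice of limit. No promoter was available for Setd1b, which was called higher, or for Ash2l and Chd1. The classes below do not use this limit. Over all tested genes with a single RefSeq promoter, the median log2 fold change was 0.12 for promoters with 0 to 9 CpGs (2279 genes), −0.043 for 10 to 19 (3204 genes), −0.023 for 20 to 29 (1962 genes) and −0.010 for 30 or more (863 genes).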
